A study of Mus musculus with 7 samples.

Results

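Chemokines are small secreted proteins that steer leukocytes, and their receptors are G protein-coupled receptors on the cells they attract. The genes described here are the 46 whose symbol starts with Ccl, Cxcl, Ccr or Cxcr followed by a digit, out of 16462 named genes on the array. They comprise 31 ligands and 15 receptors and are read by 49 of 23574 probes, with probes of a gene averaged. A further 2 probes annotated to several Ccl21 genes at once were left out. All 46 were measured in every liver, and no filter on low values was applied.

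Liver RNA was compared between 3 C3ar1 knockouts (-/-) and 4 wild-type littermates. C3ar1 encodes the receptor that binds C3a, a peptide cut from complement C3. All 7 mice were on a chow diet with no treatment named, and the labels give no age, sex or strain. Each array set 1 mouse against a common reference pooled from 6 wild-type livers, so a value is a log ratio of mouse to pool and not a level. Base 10 was assumed for the logarithm. The ratio is likely mouse over pool, since the titles put the pool first. A turned direction would turn every sign below. Because a ratio carries no level, neither the liver label nor the detection of a gene could be checked against marker genes. The knockouts are numbered 2 to 4 and the wild types 1 to 4, as labelled.

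The targeted gene did not separate the groups. C3ar1 read 0.0042, 0.0337 and 0.0514 in knockout livers 2 to 4, and -0.0296, -0.0318, 0.0225 and 0.0264 in wild-type livers 1 to 4. The difference was 0.0329 ± 0.0232 (SE; limma, adjusted p = 0.884). Which exons were deleted is unstated, so this probe tests neither labels nor direction. Knockout liver 2 had the widest spread over all probes, with an SD of 0.0975 against 0.0466 to 0.0676 on the others. Between the genotypes 1 of 22212 rows passed, a row being a gene or an unnamed probe, and 0 passed without knockout liver 4.

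Chemokines fall into families by the spacing of their first cysteines, CC or CXC, and by use. Inflammatory ligands are switched on in macrophages, endothelium and hepatocytes by NF-kB or interferon, and recruit monocytes, neutrophils and activated lymphocytes to the liver. Homeostatic ligands position lymphocytes and stem cells in resting tissue. C3a, the ligand of C3ar1, is itself a leukocyte attractant released when complement is activated.

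None of the 46 genes differed between the genotypes past the threshold of 0.05 in limma after Benjamini-Hochberg adjustment over all rows, a level reached by 0.0045% of rows. The smallest adjusted p among them was 0.884. At an unadjusted p under 0.05 limma listed 2, or 4.35%, against 4.55% of all rows. These were Cxcl10, lower in the knockouts (1 gene, against 2.66% of rows), and Ccl19, higher (1 gene, against 1.89% of rows). The differences were above 0 in 24 genes and below 0 in 22, while 57.2% of all rows were above 0. Their median was 0.00651, next to 0.00558 over all rows. A difference of at least 0.1 in either direction, or 1.26-fold, was seen in 3 genes (6.52%, against 4.18% of rows), namely Cxcl10, Cxcl14 and Cxcl5. Without knockout liver 4 it was 7 genes (15.2%, against 6.36% of rows), and Cxcl14 was no longer among them. The 95% interval of a difference reached a median of 0.0563 to either side, from 0.0374 for the tightest gene to 0.354 for Cxcl1.

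**Figure D1:**
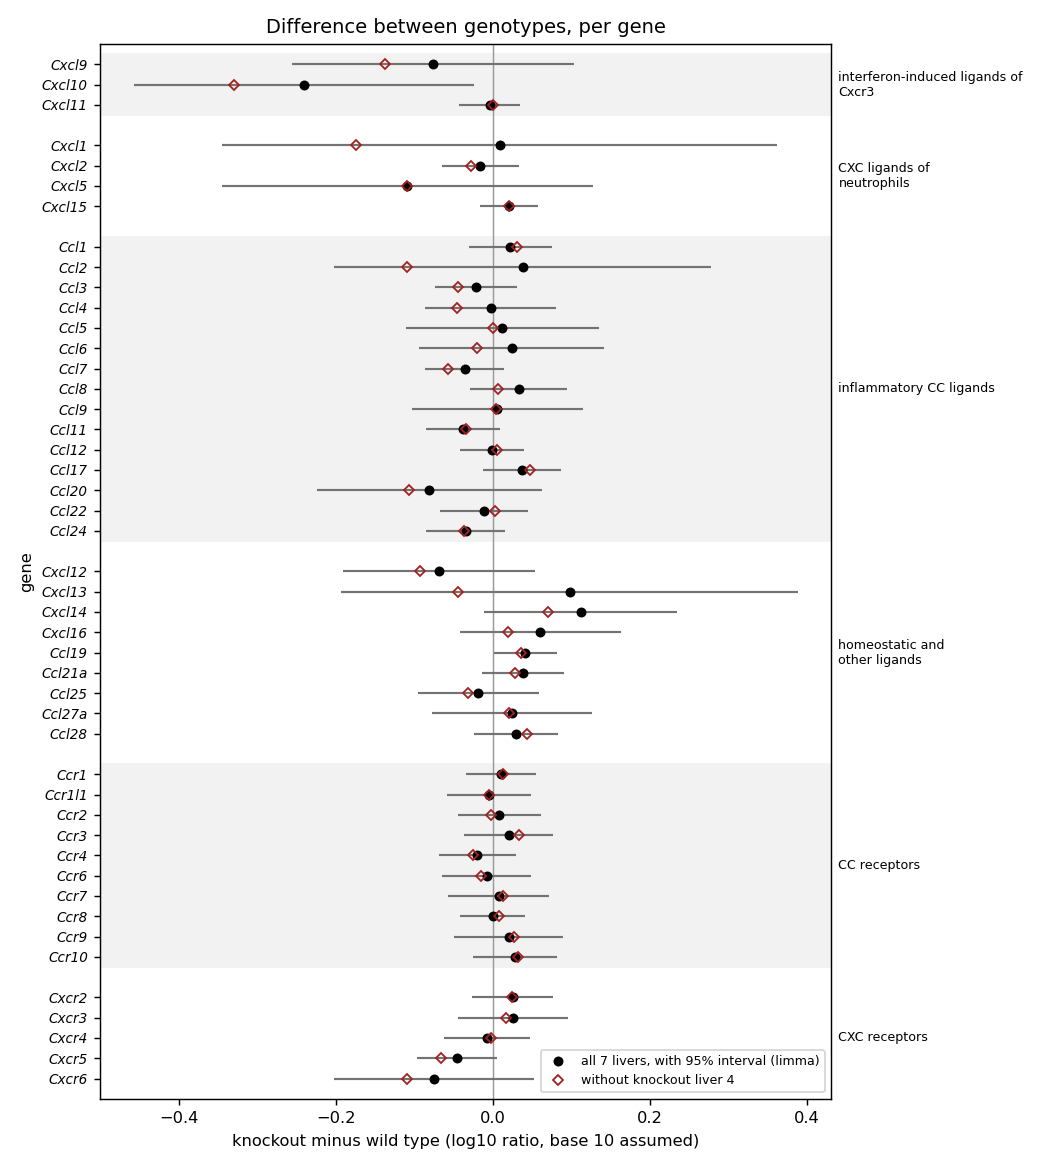
Difference between knockout and wild-type livers for each of the 46 genes, ordered by role, on the log10 ratio scale. Black points are the limma estimates over all 7 livers with their 95% intervals, and open diamonds are the estimates without knockout liver 4. The intervals of Cxcl10 (-0.458 to -0.0236) and Ccl19 (0.00136 to 0.0818) leave out 0 before any adjustment.

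The interferon-induced ligands Cxcl9, Cxcl10 and Cxcl11 attract T cells and natural killer cells through Cxcr3. Cxcl10 gave the smallest p of all the chemokine genes. It read 0.0701, -0.262, -0.112 and -0.0699 in wild-type livers 1 to 4 and -0.360, -0.486 and -0.157 in knockout livers 2 to 4. Knockout livers 2 and 3 were thus below all 4 wild types, while knockout liver 4 lay between wild-type livers 2 and 3. The knockout mean was -0.334 ± 0.166 (SD, n = 3) and the wild-type mean -0.0933 ± 0.136 (SD, n = 4). The difference of -0.241 ± 0.0934 (SE) did not pass (limma, unadjusted p = 0.034, adjusted p = 0.884). It corresponds to 1.74-fold in base 10 and would be 1.18-fold in base 2. It was -0.165 without knockout liver 3 (limma, adjusted p = 0.767). Without knockout liver 4 it was -0.330 (limma, unadjusted p = 0.00645, adjusted p = 0.807). In bulk liver, fewer cells of a type and less RNA per cell cannot be told apart.

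Cxcl9 had its highest value, like Cxcl10, in wild-type liver 1, at 0.0620. The other wild types read -0.135, -0.248 and -0.124, and knockout livers 2 to 4 read -0.288, -0.211 and -0.0634. The groups overlapped, and the difference was -0.0763 ± 0.0775 (SE; limma, adjusted p = 0.884). Cxcl11 stayed between -0.0083 and 0.0238 in all 7 livers. Its difference was -0.00406 with a 95% interval from -0.0430 to 0.0348. Their receptor gene Cxcr3 differed by 0.0262 ± 0.0302 (SE). Cxcr6, the receptor of Cxcl16 on natural killer T cells, was also highest in wild-type liver 1 (0.0908) and lowest in knockout liver 3 (-0.150), with a difference of -0.0746 ± 0.0547 (SE) that did not pass (adjusted p = 0.884).

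The 250 bases before the transcription start are shown for Cxcl9 and Cxcl10, the Cxcr3 ligands that varied, and for Cxcl1, the chemokine gene with the widest spread. They come from RefSeq, build GRCm38.p6, 5′ to 3′ on the gene's strand, at chr5:92328080-92328329 (minus), chr5:92348890-92349139 (minus) and chr5:90890995-90891244 (plus). Capitals mark letter matches, on either strand, to an NF-kB motif (GGGNNTTNCC) or to an interferon-stimulated response element (GAAANNGAAA). A gamma-activated motif (TTCNNNGAA) was also searched and is absent from these windows.
Cxcl9: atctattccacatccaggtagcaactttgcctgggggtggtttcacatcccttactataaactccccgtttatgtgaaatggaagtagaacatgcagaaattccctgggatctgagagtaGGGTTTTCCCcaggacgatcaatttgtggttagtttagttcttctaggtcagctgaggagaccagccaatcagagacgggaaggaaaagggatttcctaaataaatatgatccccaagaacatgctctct
Cxcl10: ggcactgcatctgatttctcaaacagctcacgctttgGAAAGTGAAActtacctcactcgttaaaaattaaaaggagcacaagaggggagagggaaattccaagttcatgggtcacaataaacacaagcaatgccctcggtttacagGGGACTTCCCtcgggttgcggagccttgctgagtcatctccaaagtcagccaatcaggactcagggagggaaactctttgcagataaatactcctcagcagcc
Cxcl1: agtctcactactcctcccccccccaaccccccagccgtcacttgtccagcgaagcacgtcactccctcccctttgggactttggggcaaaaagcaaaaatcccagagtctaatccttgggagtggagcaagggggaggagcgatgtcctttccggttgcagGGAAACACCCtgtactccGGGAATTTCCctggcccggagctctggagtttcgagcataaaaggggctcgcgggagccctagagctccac

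The NF-kB letters occurred once in Cxcl9 and Cxcl10 (GGGTTTTCCC and GGGACTTCCC) and at 2 places in Cxcl1, and no matches overlapped. Of the 34 chemokine and receptor genes with a RefSeq promoter, 9 held this motif (26.5%), against 4.11% of all 32851 promoter windows of that length. The other 6 were Ccl9, Ccl19, Ccl20, Ccr3, Ccr6 and Cxcl2. The response element occurred in 3 of them, Cxcl10, Cxcl14 and Ccl19 (8.82%, against 2.98% of windows), and the gamma-activated motif in 4 (11.8%, against 7.02%). A chemokine gene was counted once if any of its windows matched, while the share of all windows counts each window singly, so these shares are not strictly alike. A match is a description of letters and not a site.

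The CXC ligands of neutrophils act mostly through Cxcr2. Cxcl1 read 0.130, 0.0578, -0.273 and -0.0403 in wild-type livers 1 to 4, and -0.244, -0.169 and 0.347 in knockout livers 2 to 4. The knockouts held both the highest liver, knockout 4, and values near the lowest wild type. Their difference was 0.00917 ± 0.152 (SE; limma, adjusted p = 0.992), and it turned to -0.175 without knockout liver 4 and to -0.0713 without wild-type liver 3.

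Cxcl5 stood out in another mouse, with 0.307 in wild-type liver 2. The other wild types read -0.0973, -0.155 and -0.0590 and the knockouts -0.135, -0.0845 and -0.110, all within the range of those 3 wild types. The difference of -0.109 ± 0.102 (SE; limma, adjusted p = 0.884) became -0.00617 without wild-type liver 2. Ccl20, a ligand of Ccr6 for lymphocytes and dendritic cells, was likewise highest in wild-type liver 2, at 0.149, and between -0.136 and -0.0112 in the other 6 livers. Cxcl2 stayed between -0.0643 and 0.0034. Cxcl15, a lung ligand, was slightly higher in all 3 knockouts (0.0210 to 0.0426) than in all 4 wild types (-0.001 to 0.0197), a difference of 0.0206 ± 0.0161 (SE; limma, adjusted p = 0.884).

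**Figure D2:**
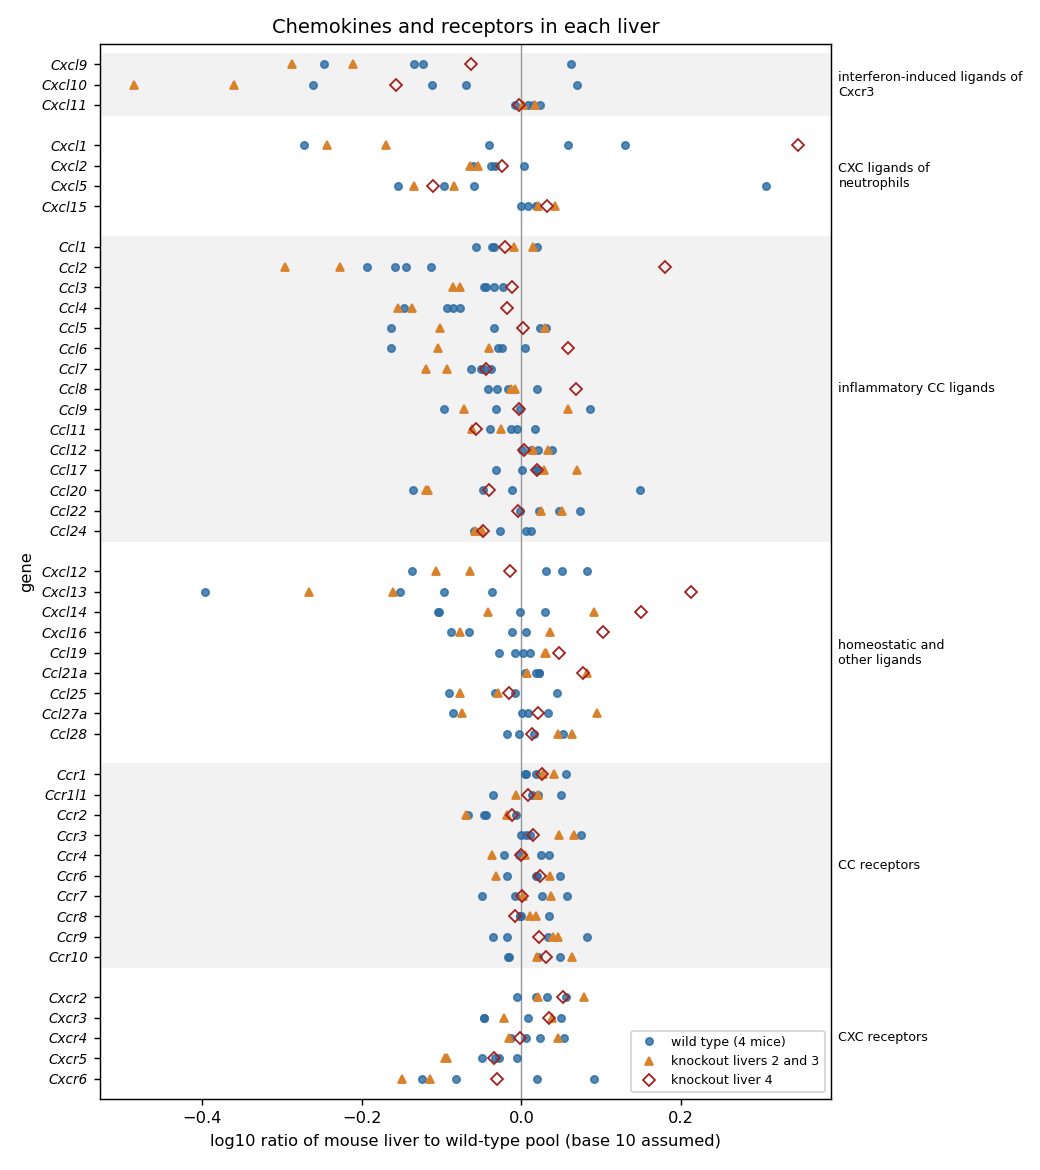
Log10 ratio of each liver to the wild-type pool for the 46 genes, ordered by role. Circles are the 4 wild types, triangles knockout livers 2 and 3, and open diamonds knockout liver 4. Cxcl1, Ccl2 and Cxcl13 have their highest value in knockout liver 4 (0.347, 0.180 and 0.212), Cxcl5 in wild-type liver 2 (0.307).

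The inflammatory CC ligands bring in monocytes, T cells and eosinophils. Of 15 measured, 7 read higher and 8 lower, with a median difference of -0.000896, and of -0.0196 without knockout liver 4. Ccl2, the main ligand of the monocyte receptor Ccr2, read -0.113, -0.194, -0.159 and -0.145 in wild-type livers 1 to 4. The knockouts read -0.227, -0.297 and 0.180, so that livers 2 and 3 lay below, and liver 4 above, all wild types. The difference was 0.0380 ± 0.103 (SE; limma, adjusted p = 0.947). Without knockout liver 4 it was -0.109, with an unadjusted p of 0.0103 and an adjusted p of 0.807 (limma). It was 0.0942 without knockout liver 2 and 0.129 without knockout liver 3.

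Ccl7, another Ccr2 ligand, read -0.0379, -0.0509, -0.0627 and -0.0467 in wild-type livers 1 to 4 and -0.119, -0.0933 and -0.0445 in knockout livers 2 to 4. As for Ccl2, knockout livers 2 and 3 lay below all wild types, but knockout liver 4 lay among them. The difference was -0.0361 ± 0.0215 (SE; limma, adjusted p = 0.884). Ccl3, a ligand of Ccr1, read -0.0776, -0.0861 and -0.0123 in the knockouts and -0.0474 to -0.0227 in the wild types. Ccl12, also a Ccr2 ligand, did not follow Ccl2 and stayed between 0.0009 and 0.0379. Its 2 probes gave differences of -0.00568 and 0.00389. Ccl8 was highest in knockout liver 4 (0.0688), and its 2 probes differed between the genotypes by 0.0333 and 0.0332.

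Ligands of eosinophils and of Ccr4 gave small differences. Ccl11 (eotaxin) read 0.0176, -0.0053, -0.0133 and -0.0391 in wild-type livers 1 to 4 and -0.0624, -0.0251 and -0.0571 in the knockouts, a difference of -0.0382 ± 0.0202 (SE). Ccl24, a further ligand of Ccr3, read 0.0121, -0.0269, -0.0596 and 0.0052 in the wild types and -0.0495, -0.0579 and -0.0482 in the knockouts, a difference of -0.0346 ± 0.0217 (SE). All 3 knockouts were close together there, just above the lowest wild type. Ccl17, a Ccr4 ligand, read 0.0012, -0.0320, 0.0183 and 0.0205 in the wild types and 0.0691, 0.0287 and 0.0190 in the knockouts, a difference of 0.0369 ± 0.0215 (SE). The groups overlapped in each of the 3 genes and none passed (limma, adjusted p = 0.884). Ccl1, Ccl4, Ccl5, Ccl6, Ccl9 and Ccl22 differed by -0.0116 to 0.0240.

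Knockout liver 4 stood apart from the other knockouts in several ligands. It was the highest of the 3 knockouts in 21 of the 46 genes (45.7%, against 29.2% of all rows). Knockout liver 2 was the highest of the 3 in nearly as many genes, and knockout liver 3 in the fewest. Knockout liver 4 was the highest of all 7 livers in 10 genes (21.7%, against 13.6% of rows), which were Ccl2, Ccl3, Ccl4, Ccl6, Ccl8, Ccl19, Cxcl1, Cxcl13, Cxcl14 and Cxcl16. By this count it did not stand apart from the wild types, since wild-type liver 4 was highest in 12 genes (26.1%, against 10.4% of rows) and wild-type liver 1 in 10 (21.7%, against 14.3%). All 10 genes highest in knockout liver 4 encode ligands, as do 31 of the 46 genes (67.4%). Without this liver 22 of the 46 differences were above 0 and the median was -0.00109. At an unadjusted p under 0.05 limma then listed 4 genes, Cxcl10, Cxcr5, Ccl7 and Ccl2 (8.70%, against 4.81% of rows), each lower in the knockouts (2.62% of rows were), and 0 passed after adjustment. Knockout livers 2 and 3 were below all 4 wild types in these 4 genes and in Ccl3, 5 in all (10.9%, against 5.32% of rows). Knockout liver 4 was picked out by its high values in the chemokine genes themselves. The counts, differences and p-values without it, those of Cxcl10 and Ccl2 included, therefore give no separate support. The count at an unadjusted p under 0.05 (limma) was 0 without knockout liver 2 and 3 without knockout liver 3.

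Markers of macrophages and monocytes were high in the same liver, and the means of several other marker lists were highest there too. Of the 8 cell marker lists 6 had their highest mean there. Of all rows, 13.6% were highest in this liver, but that is a share of single rows and not of list means. The mean of 11 measured of 12 listed Kupffer cell and macrophage markers was 0.104 in knockout liver 4, -0.0844 and -0.151 in knockout livers 2 and 3, and -0.224 to -0.0665 in the wild types, and 10 of the 11 genes were highest there. The mean of 6 of 8 monocyte markers was 0.0551 there and -0.137 to -0.0460 in the other 6 livers, with 5 of the 6 genes highest there. That of 8 of 10 neutrophil markers was 0.0475 there and -0.0540 to -0.0207 elsewhere, but only S100a8 (0.151) and S100a9 (0.239) of the 8 were highest in this liver, and Camp, a granule protein gene, was lowest there (-0.0881).

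Outside the myeloid lists, stellate cell and fibroblast markers averaged 0.0390 in knockout liver 4 and -0.0845 to -0.0125 elsewhere, but only 3 of 9 genes were highest there. Endothelial markers averaged 0.0445 there and -0.0304 to 0.0374 elsewhere, the 0.0374 in knockout liver 2, with 3 of 12 genes highest in knockout liver 4. T and natural killer cell markers (11 of 12 measured) reached 0.0157 in this liver and lay between -0.0284 and 0.00955 in the rest. Of those 11 genes 5 were highest in it. B cell and hepatocyte markers had their highest mean in another liver. The cytokine gene Il1b read 0.120 in knockout liver 4 and -0.128 to -0.0904 in the others. Of 26 upstream cytokine and NF-kB pathway genes 9 were highest in this liver. Their part in the Cxcl1 and Ccl2 values was not tested.

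The genotype differences of several marker lists rested on this liver. The mean difference of the Kupffer cell list was 0.0806, and 0.00668 without knockout liver 4. That of the monocyte list turned from 0.0218 to -0.0307, and that of the neutrophil list from 0.00977 to -0.0228. B cell markers turned from 0.0131 to -0.00332 and T and natural killer cell markers went from 0.0107 to 0.00209. Hepatocyte, endothelial and stellate cell markers kept their direction, at 0.0340, 0.0445 and 0.0421 with this liver and 0.0169, 0.0362 and 0.0246 without it. The part of these cells in the ligand values was not tested.

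**Figure D3:**
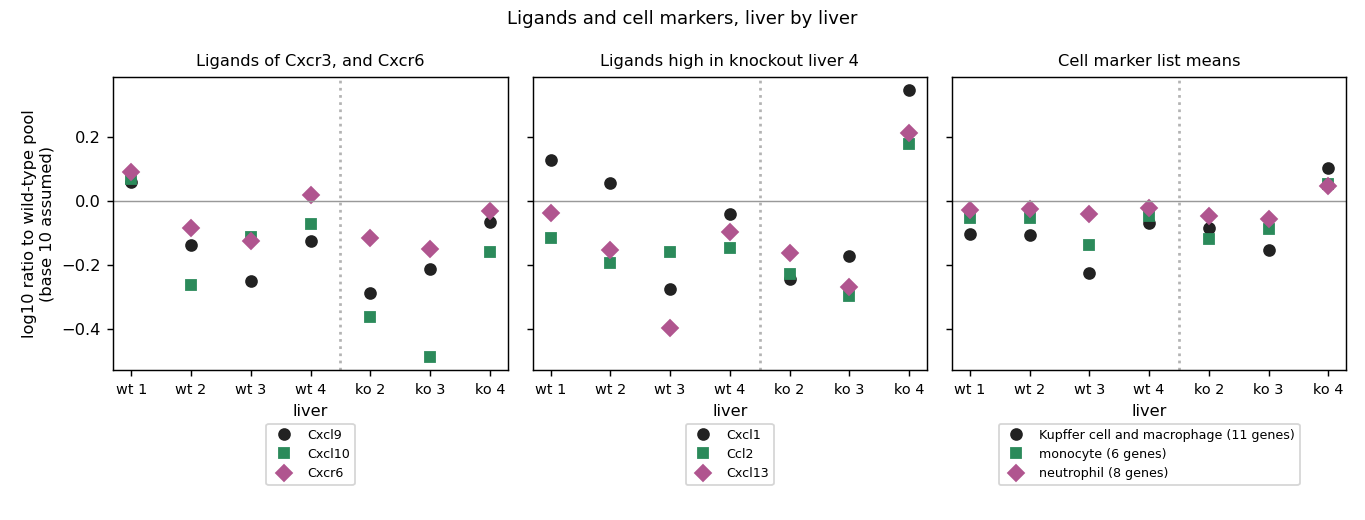
Log10 ratio to the wild-type pool in each liver, wild types left and knockouts right of the dotted line. The left panel shows Cxcl9, Cxcl10 and Cxcr6, the middle panel Cxcl1, Ccl2 and Cxcl13, and the right panel the means of 3 marker lists. The middle panel holds genes picked for their high value in knockout liver 4. The right panel holds 3 of the 6 lists, out of 8, whose mean was highest there. That these panels share their highest liver was therefore fixed by the choice. In the left panel wild-type liver 1 is highest, but Cxcl11 and Cxcr3, not shown, were highest in wild-type liver 4.

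Of the 9 homeostatic and other ligands, 7 read higher and 2 lower in the knockouts, while 57.2% of all rows read higher. Their median difference of 0.0387 became 0.0209 when knockout liver 4 was left out, with 6 of the 9 above 0. Ccl19, which guides T cells and dendritic cells through Ccr7, read -0.0281, -0.0084, 0.0019 and 0.0110 in wild-type livers 1 to 4 and 0.0297, 0.0304 and 0.0469 in the knockouts. All 3 knockouts were above all 4 wild types, by 0.0416 ± 0.0173 on average (SE; limma, unadjusted p = 0.0443, adjusted p = 0.884), or 1.10-fold. Ccl19 and Cxcl15 were the only 2 of the 46 genes whose groups did not overlap (4.35%, against 5.27% of rows), and in both the knockouts were higher, as in 2.71% of rows. Ccl21a, the other Ccr7 ligand, read 0.0177, 0.0221, 0.0226 and 0.0039 in the wild types and 0.0820, 0.0072 and 0.0767 in the knockouts, with a difference of 0.0387 ± 0.0224 (SE; limma, adjusted p = 0.884). Knockout liver 3 lay among the wild types. It is 1 of several near-identical gene copies that a probe may not separate.

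Cxcl14, a ligand made by epithelial and stromal cells, read -0.105, -0.0016, -0.103 and 0.0292 in wild-type livers 1 to 4 and 0.0915, -0.0419 and 0.150 in the knockouts. Knockout liver 3 fell among the wild types, and the difference of 0.112 ± 0.0530 (SE), or 1.29-fold, did not pass (limma, adjusted p = 0.884). It was 0.0699 without knockout liver 4, 0.166 without knockout liver 3 and 0.0571 with arrays weighted by their fit. Cxcl16, the ligand of Cxcr6, read -0.0663, -0.0124, -0.0883 and 0.0060 in the wild types and 0.0359, -0.0775 and 0.103 in the knockouts. Knockout livers 2 and 4 were above all wild types and knockout liver 3 among them, a difference of 0.0607 ± 0.0441 (SE; limma, adjusted p = 0.884). Single livers moved it widely, to 0.0194 without knockout liver 4 and to 0.110 without knockout liver 3, and it was 0.0100 with weighted arrays. Its 2 probes gave unlike values, 0.0988 and 0.0225. In the first, knockout livers 2 and 4 read 0.170 and 0.169, while in the second they read -0.0983 and 0.0371.

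Cxcl13, which draws B cells through Cxcr5, read -0.0366, -0.152, -0.396 and -0.0971 in the wild types and -0.162, -0.267 and 0.212 in the knockouts. Its difference of 0.0984 ± 0.125 (SE; limma, adjusted p = 0.892) turned to -0.0438 without knockout liver 4. Cxcr5 itself read -0.0489, -0.0335, -0.0279 and -0.0052 in the wild types and -0.0931, -0.0960 and -0.0344 in the knockouts, a difference of -0.0456 ± 0.0219 (SE; limma, adjusted p = 0.884).

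Cxcl12, the ligand of Cxcr4 that holds stem cells and lymphocytes in their niches, is the one chemokine gene near the targeted locus. It lies within 10 Mb of C3ar1 on chromosome 6. It read 0.0508, -0.137, 0.0312 and 0.0816 in wild-type livers 1 to 4 and -0.0641, -0.108 and -0.0138 in the knockouts. All 3 knockouts were below wild-type livers 1, 3 and 4 and above wild-type liver 2. The difference was -0.0685 ± 0.0526 (SE; limma, adjusted p = 0.884), and it depended on single livers. Leaving out wild-type liver 4 gave -0.0435, knockout liver 3 gave -0.0455 and wild-type liver 2 gave -0.116. Its receptors Cxcr4 and Ackr3 differed by -0.00737 and -0.0329. The ligands of lymphocytes at epithelia, Ccl25, Ccl27a and Ccl28, differed by -0.0187, 0.0244 and 0.0294.

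Most receptors varied little, Cxcr6 apart. The 10 CC receptors differed by -0.0200 (Ccr4) to 0.0287 (Ccr10), and the 5 CXC receptors by -0.0746 (Cxcr6) to 0.0262 (Cxcr3). Ccr2, which marks inflammatory monocytes, read -0.0690 to -0.0122 in the knockouts and -0.0664 to -0.0066 in the wild types. Its value in knockout liver 4 was -0.0122, beside the Ccl2 value of 0.180 in that liver. Ccr1, a receptor of monocytes and neutrophils, differed by 0.0102 and the neutrophil receptor Cxcr2 by 0.0253. The 95% intervals of all 15 receptors lay between -0.202 and 0.0963, so differences of more than 1.59-fold in base 10 fall outside them.

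A few chemokine genes differed widely from mouse to mouse. The SD over the 7 livers was at or above the 90th percentile of all rows, 0.0858, in 9 of the 46 genes (19.6%). Below the median of all rows, 0.0361, were 26 genes (56.5%), close to the even split that a median makes. The 9 were Cxcl1, Cxcl13, Cxcl10, Cxcl5, Ccl2, Cxcl9, Ccl20, Cxcl14 and Cxcr6. No CC receptor was among them. The chemokine genes on chromosome 5, which holds the CXC ligand cluster, had a median SD of 0.119 over 9 genes. The median was 0.0359 over the 14 genes on chromosome 11, with most CC ligands, and 0.0263 over the 9 on chromosome 9, which are all receptors. Whether a flat gene was above background is not known from ratios.

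**Figure D4:**
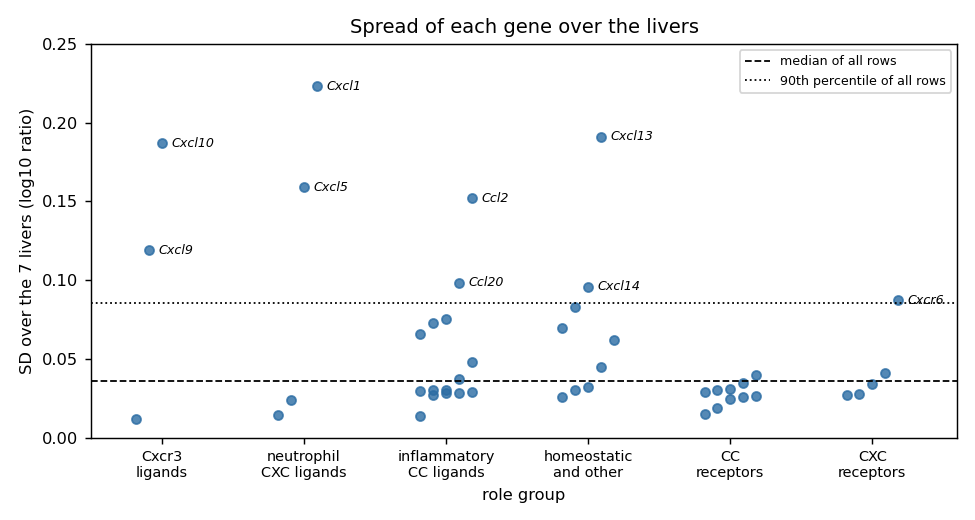
SD of the log10 ratio over the 7 livers for each gene, by role group. Dashed and dotted lines are the median (0.0361) and the 90th percentile (0.0858) over all 22212 rows. The genes named in the plot are the 9 above the upper line, 8 ligands and Cxcr6.

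Several ligand and receptor genes read below the pool in both genotypes. Ccl3, Ccl4, Ccl7, Ccr2 and Cxcr5 were below it in all 7 livers (10.9%, against 0.909% of rows). Counting the wild types alone, Ccl2 and Cxcl13 joined them, 7 in all (15.2%, against 3.80% of rows). The wild-type mean of Ccl2 was -0.153 ± 0.0333 (SD, n = 4), although the pool was itself made from wild-type livers. Ccl12, Ccl21a and Ccr1 were above the pool in all 7 livers (6.52%, against 2.72% of rows).

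Other genes of the pathway showed no difference past the threshold. Of 78 measured genes in 3 lists 0 passed in limma, 2 were at an unadjusted p under 0.05 (4.55% of all rows were), 55 read higher and 23 lower, with a median difference of 0.0145. Without knockout liver 4, 46 of the 78 read higher and the median was 0.00546, next to 0.00685 over all rows in those 6 livers. Among 16 atypical receptors and other chemokines 13 read higher, with Mif, a chemokine-like cytokine, at 0.0852 ± 0.0528 (SE), Cx3cl1 (fractalkine) at 0.0380 and the ligand-cleaving peptidase Dpp4 at -0.0520. Of 36 genes of receptor signalling 22 read higher. There the G protein subunit gene Gnai1 differed by -0.198 ± 0.0545 (SE; limma, unadjusted p = 0.00717, adjusted p = 0.884), Rac1 by -0.0606 and Gng2, a further G protein subunit gene, by 0.0498.

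Of 26 upstream cytokine and NF-kB pathway genes 20 read higher in the knockouts, with a median difference of 0.0175. Without knockout liver 4 it was 14 of 26, with a median of 0.000775. Il1r1, the interleukin-1 receptor, which can induce Cxcl1 and Ccl2, read -0.0210, -0.0245, -0.207 and -0.0797 in the wild types and 0.0808, 0.329 and 0.190 in the knockouts. The groups did not overlap, and the difference was 0.283 ± 0.0658 (SE), or 1.92-fold in base 10 (limma, unadjusted p = 0.00294, adjusted p = 0.884). The interferon-gamma receptor gene Ifngr2 differed by 0.117 ± 0.0534 (SE) and Tnfrsf1a, a receptor of tumour necrosis factor, by 0.0580, neither past the threshold. Knockout liver 3, which had the highest Il1r1, read -0.169 for Cxcl1 and -0.297 for Ccl2. Any link between Il1r1 and these ligands was not tested.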

How the data were processed

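The authors deposited log ratios of 7 two-channel arrays, read here as log10, with columns already centred near 0. Per the labels' protocols, RNA was isolated on RNeasy columns with DNase and labelled after aminoallyl amplification. A dye swap is named per the series' design, but how its arrays were merged, the log base, the background correction and the normalization are not given in the sources used here. Probes were named through the platform annotation and the GRCm38.p6 gene table, by Entrez number for 17724 probes, by accession for 21 and by the annotation's own symbol for 79. Of the rest, 50 had several symbols and 5700 no listed gene. The highest share of identical values between arrays was 0.119%, so all 7 were kept.

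Probes of a gene were averaged, and the 22212 rows went through lmFit and eBayes of limma 3.58.1, run in R 4.3.3 (knockout minus wild type, two-sided, Benjamini-Hochberg over all rows, threshold 0.05). The labels call the animals separate mice. Replicate numbers were not used as pairs in the main fit. Same-numbered deviations correlated at -0.131, -0.207 and -0.150, within the range of differently numbered ones, -0.294 to 0.323. So few values cannot exclude a pairing. Values in every liver are given for the 10 genes of smallest p, the 4 further ones of largest SD and those within 20 Mb of C3ar1, and of each pathway list the 3 genes of smallest p are named. Other genes singled out, among them Cxcl9, Ccl20, Cxcr6, Il1b and Ackr3, were chosen after their values were seen. The fit was tested on simulated data. The genes, role groups and pathway and marker lists (atypical receptors and other chemokines, receptor signalling, upstream cytokines, and 8 cell types) were chosen with earlier results of these data known. Alternatives were 3 scalings, a filter on spread, unaveraged probes, weighted and robust fits, other thresholds, a replicate block and each liver left out.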

Additional observations from a re-analysis of the deposited data

Results flagged for a closer look

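In 2 of the 46 genes 1 wild-type liver lay far from the other 3, by a gap above Dixon's 95% critical value for 4 samples. Ccr3, the eotaxin receptor, read 0.0748 in wild-type liver 4 and -0.0005 to 0.0105 in the others. Ccr8, a receptor of T cell subsets, read 0.0340 in wild-type liver 3 and -0.0019 to -0.0011 in the others. Chance gives such a gap in about 1 of 20 groups of 4, and the knockouts, with 3 livers, were not examined this way. The wide values of Cxcl5 and Ccl20 in wild-type liver 2 fell short of this gap.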

How the results depend on the processing

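No chemokine or receptor gene and none of the other pathway genes passed in limma under any alternative run, and the smallest adjusted p of a chemokine gene was 0.662. The count at an unadjusted p under 0.05, 2 as reported, was 1 with median centring and with the less variable rows left out (20 of the 46 genes remained there), 0 after quantile or scale normalization, and 4 with array weights. With livers left out it ran from 0 (without wild-type liver 1 or knockout liver 2) to 4 (without knockout liver 4). The median difference was -0.00859 with array weights and ran from -0.00247 to 0.0128 with livers left out. With the replicate block 0 genes passed, 2 were at an unadjusted p under 0.05 and the median was 0.00487, so the block changed no call. Of 15 genes given in full 12 kept their direction under each alternative. Cxcl1 turned to -0.0480 with array weights, and with livers left out it ran from -0.175 (knockout 4) over -0.0713 (wild type 3) to 0.120 (knockout 2). Cxcl13 turned to -0.00107 with array weights, and ran from -0.0438 (knockout 4 left out) to 0.196 (knockout 3). Ccl2 turned to -0.0565 with array weights, and ran from -0.109 (knockout 4) to 0.129 (knockout 3). The cause was not tested. Cxcl10 ranged from -0.342 to -0.165. Signal over background was not analysed here and limits what flat genes show.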
